A study of Arabidopsis thaliana with 12 samples.

Results

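Transcripts of Arabidopsis seedlings exposed to C18:1 CoA were set against those of seedlings exposed to C18:0 CoA, a pair of acyl-CoAs whose chains both have 18 carbons and differ by 1 double bond, as their names give it. The comparison takes the 3 libraries labelled C18:1 and the 3 labelled C18:0, which are 6 of the 12 libraries of the series, and all 28642 listed genes. All seedlings were wild-type Arabidopsis thaliana, 14 days old and grown in liquid medium with sucrose. The C18:1 CoA group and the C18:0 CoA group received their acyl-CoA at a final 0.1%, dispersed with the surfactant Pluronic F68 at 0.01%, for 90 min. The control group, cited below for its levels only, received the surfactant alone, so all groups share it. Each library came from a pool of 80 whole seedlings, so roots and shoots are mixed, and fewer cells of a type cannot be told apart from less RNA per cell. The labels do not state where the double bond lies. They call the replicates biological, and the p-values below measure only the spread between these pools.

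In an acyl-CoA a fatty acid is joined to coenzyme A through a thioester, the form in which cells elongate them, build them into lipids and break them down. In plants the first double bond of an 18-carbon chain is placed by stearoyl-ACP desaturases in plastids, of which SSI2 is the best known. Breakdown of an unsaturated chain in peroxisomes needs auxiliary isomerases and hydratases beside the core beta-oxidation enzymes. Acyl-CoA-binding proteins such as ACBP1 and ACBP2 hold RAP2.12 at the plasma membrane in air. RAP2.12 is a group VII ethylene response factor (ERF-VII) that switches on the low-oxygen genes once it is released and stable. The study's known question was whether supplied acyl-CoAs act on that switch, and the C18 pair bears on what the double bond adds.

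The 6 libraries held 348140, 3110153 and 4185211 exon reads for C18:1 CoA replicates 1 to 3, against 4236345, 602649 and 2500251 for C18:0 CoA replicates 1 to 3. The deepest library thus had 12.2 times the reads of the shallowest. A level of 3 reads stood for 8.85, 0.926 and 0.703 CPM, the library-size-scaled count used for all levels below, in the C18:1 CoA libraries and for 0.689, 5.26 and 1.21 CPM in the C18:0 CoA libraries, which covers counting error only. Each of the 6 libraries has a lane number of its own in the labels, so lane and treatment cannot be told apart. Pearson's r of log2 CPM across genes ran between 0.815 and 0.957 for pairs within a group and between 0.775 and 0.972 for pairs across the groups. These ranges overlapped, but r moved with depth. Within groups, the pairs without C18:1 CoA replicate 1 and C18:0 CoA replicate 2, the shallow libraries, had r of 0.954 and 0.957. The within-group pairs with a shallow library had r between 0.815 and 0.882. The ranges therefore do not show how far the acyl-CoA groups stand apart.

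No gene was called different between C18:1 CoA and C18:0 CoA. With edgeR's quasi-likelihood test and Benjamini-Hochberg adjustment, 0 of the 17036 genes tested (0%) had an adjusted p under 0.05, and the smallest adjusted p was 1.00. At an unadjusted p under 0.05, edgeR had 147 genes higher (0.863%) and 303 lower (1.78%) after C18:1 CoA, together 450 (2.64%), where 852 would be met with no difference at all. DESeq2 and limma voom also called 0 genes at an adjusted p under 0.05. Their unadjusted counts were 153 higher and 270 lower in DESeq2 and 198 higher and 405 lower in voom. The 3 libraries of one group lay apart from the 3 of the other in 821 genes that were higher (4.82%) and 864 that were lower (5.07%). The median log2 fold change of all genes tested was -0.0017, and 8472 of them were above 0.

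**Figure D1:**
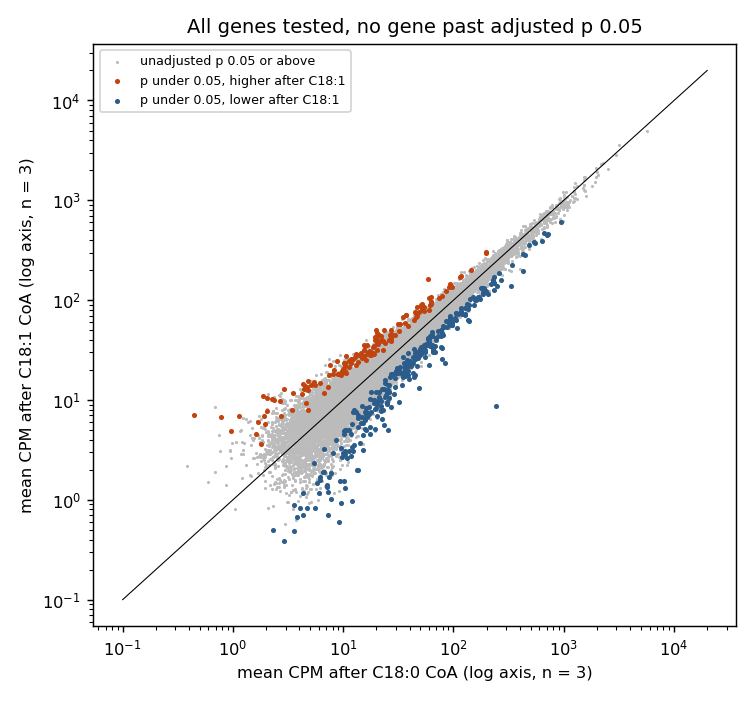
Mean CPM after C18:1 CoA (vertical) and after C18:0 CoA (horizontal) for each gene tested, both on log axes, with 3 libraries a group. Genes at an unadjusted edgeR p under 0.05, 147 higher and 303 lower after C18:1 CoA, lie off the diagonal, and the lone point far below it is AT4G12490.

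A p that misses the threshold does not show that the acyl-CoAs act alike, so each fold change was also read with its 95% interval. The interval lay wholly within a 2-fold difference either way for 9183 genes, 53.9% of those tested. Split into 3 groups by level, this held in the highest group for 5026 of 5679 (88.5%), in the middle group for 3680 of 5678 (64.8%), and in the lowest group for 477 of 5679 (8.40%). The median standard error was 0.24, 0.33 and 0.54 (log2) in the highest, middle and lowest group. Data were also simulated at the same depths, with each gene drawn independently at its own fitted spread. Trends shared between genes, such as that with exon length below, were not simulated. In those data this comparison recovered 29.6% of 98 genes changed 2-fold and 82.7% of 98 genes changed 4-fold. Most 2-fold differences were thus missed in those data, and most 4-fold differences were called. How many such differences would be called in the real libraries was not tested. AT1G30720 and GSTU25, described below, had log2 fold changes of -2.07 and -2.75 and did not pass the adjusted test.

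The genes that led the list on unadjusted p were a pirin, a xyloglucan enzyme of the cell wall and a cytochrome P450 of glucosinolate synthesis. They are described for their values, and none passed the adjusted test. PRN (AT3G59220) encodes pirin, a cupin-fold protein that binds the alpha subunit of the plant G protein, and lies at 21894134-21895623 of chromosome 3 (TAIR10). It had 266, 103 and 116 CPM after C18:1 CoA, against 47.1, 68.4 and 59.0 CPM after C18:0 CoA and 35.5, 38.5 and 45.6 CPM in the control. All C18:1 CoA libraries were above all C18:0 CoA libraries, and those were above all control libraries, with C18:1 CoA replicate 1, the shallowest library, far above the rest. PRN's log2 fold change was 1.41 ± 0.32 (SE; 95% interval 0.74 to 2.07; edgeR unadjusted p = 0.000394, adjusted p = 1.00). Without the shallow libraries it was 1.06.

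XTH18 (AT4G30280) encodes a xyloglucan endotransglucosylase/hydrolase, which cuts and rejoins the xyloglucan of the wall, and lies at 14825808-14827047 of chromosome 4. It had 62.0, 53.1 and 69.8 CPM after C18:1 CoA, against 103, 142 and 173 CPM after C18:0 CoA and 90.7, 95.3 and 87.3 CPM in the control. The groups did not overlap, and the control lay between them, with C18:1 CoA below it and C18:0 CoA above it. XTH18's log2 fold change was -1.17 ± 0.25 (SE; -1.69 to -0.66; edgeR unadjusted p = 0.000155, adjusted p = 1.00), the smallest unadjusted p of all genes. Reads shared with its near neighbours XTH17 and XTH19 are not in these counts, so its level is less certain.

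CYP81F2 (AT5G57220) encodes a cytochrome P450 that hydroxylates indole glucosinolates in defence, and lies at 23187840-23189857 of chromosome 5. It had 17.7, 16.4 and 22.3 CPM after C18:1 CoA, against 40.9, 43.8 and 43.6 CPM after C18:0 CoA and 44.2, 44.2 and 56.4 CPM in the control. C18:1 CoA stood apart from both other groups, while C18:0 CoA was just below the control. CYP81F2's log2 fold change was -1.15 ± 0.25 (SE; -1.68 to -0.61; edgeR unadjusted p = 0.000261, adjusted p = 1.00). IGMT4, whose symbol names an indole glucosinolate O-methyltransferase of the same branch, had 59.0, 36.1 and 63.9 CPM after C18:1 CoA, against 86.6, 144 and 92.5 CPM after C18:0 CoA and 95.5, 125 and 114 CPM in the control. Its log2 fold change was -1.01 ± 0.27 (SE), and it too has close copies whose shared reads are not counted.

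The 250 bases before the annotated start of these 3 genes are shown, since they had the smallest unadjusted p of the 20 leading genes and are the DNA next to which their transcription begins. They come from the RefSeq genome, build TAIR10.1, and are written in the direction of the gene. RefSeq places the starts upstream of the deposited gene bounds for PRN and XTH18. Capitals mark the W-box core TTGAC, bound by WRKY factors, on either strand (GTCAA on the other), and the G-box CACGTG, bound by bZIP and bHLH factors, which reads alike on both strands. No capitals overlap.
XTH18, chr4:14827212-14827461, minus strand: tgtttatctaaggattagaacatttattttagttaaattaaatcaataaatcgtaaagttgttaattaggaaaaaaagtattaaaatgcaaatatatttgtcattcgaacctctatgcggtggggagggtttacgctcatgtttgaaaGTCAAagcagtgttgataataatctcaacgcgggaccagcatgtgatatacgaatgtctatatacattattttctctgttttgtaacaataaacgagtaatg
CYP81F2, chr5:23187590-23187839, plus strand: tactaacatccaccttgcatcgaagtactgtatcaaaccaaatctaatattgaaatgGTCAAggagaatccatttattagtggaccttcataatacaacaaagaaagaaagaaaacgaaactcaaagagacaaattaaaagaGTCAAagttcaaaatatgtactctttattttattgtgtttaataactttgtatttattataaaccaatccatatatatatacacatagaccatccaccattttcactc
PRN, chr3:21893562-21893811, plus strand: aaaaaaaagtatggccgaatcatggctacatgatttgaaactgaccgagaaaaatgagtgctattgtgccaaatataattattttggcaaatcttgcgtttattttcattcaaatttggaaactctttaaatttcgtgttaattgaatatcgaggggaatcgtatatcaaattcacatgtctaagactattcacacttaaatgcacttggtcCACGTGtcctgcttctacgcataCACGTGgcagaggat
The PRN window holds the G-box at 2 places, both close to the start, and 7.30% of the 17021 windows of tested genes hold it at least once. The CYP81F2 window holds the W-box core at 2 places and the XTH18 window at 1, and 44.8% of windows hold that core. The GCC-box AGCCGCC, bound by ethylene response factors, is in none of the 3 windows and in 0.599% of all. A match describes letters only, and no match says only that these letters are not in the window.

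**Figure D2:**
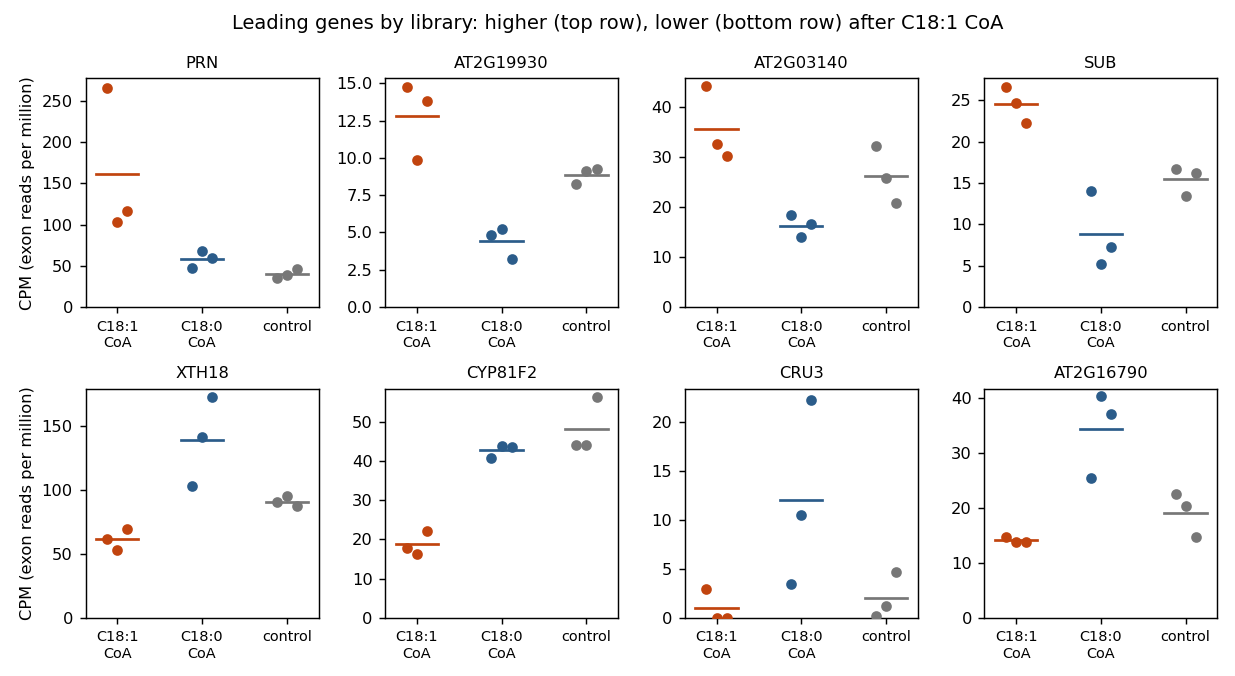
CPM in each library for the 4 genes with the smallest unadjusted p on either side, with points for libraries and a bar for the mean of 3, C18:1 CoA left, C18:0 CoA in the middle and control right. PRN had 266, 103 and 116 CPM after C18:1 CoA and 47.1, 68.4 and 59.0 CPM after C18:0 CoA, while XTH18 had 62.0, 53.1 and 69.8 against 103, 142 and 173 CPM.

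Of the 10 leading genes on the higher side, PRN included, 5 had all C18:1 CoA libraries above all control libraries and 7 had all C18:0 CoA libraries below them. These shares were 4.13% and 6.47% over all genes tested. Over the 821 genes whose C18:1 CoA libraries lay above their C18:0 CoA libraries, they were 25.5% and 24.2%. The 10 leading genes were picked from these 821 by the smallest unadjusted edgeR p on the same libraries. Higher shares among the 10 are therefore no separate support for a difference from the control. AT2G19930, annotated as an RNA-dependent RNA polymerase, had 14.8, 9.87 and 13.8 CPM after C18:1 CoA, against 4.82, 5.26 and 3.23 CPM after C18:0 CoA and 8.25, 9.13 and 9.27 CPM in the control. The control thus lay between the acyl-CoA groups, and the log2 fold change was 1.51 ± 0.44 (SE). SUB, the receptor kinase STRUBBELIG of tissue patterning, had 26.6, 24.7 and 22.3 CPM after C18:1 CoA, against 14.0, 5.26 and 7.27 CPM after C18:0 CoA, a log2 fold change of 1.26 ± 0.39 (SE). The lowest of these C18:0 CoA values rests on 3 reads. The remaining genes were AT2G03140 (an alpha/beta-hydrolase), AT4G11800 (a calcineurin-like phosphoesterase), AT3G28720 (uncharacterized), PPD1 (AT4G15510, a PsbP-domain protein of the thylakoid), AT5G40490 (an RNA-binding protein), AT5G49665 (a RING finger protein) and TRO (AT1G51450, TRAUCO, a trithorax-group protein). Their log2 fold changes ran between 0.69 and 1.24.

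On the lower side, 7 of the 10 leading genes had all C18:1 CoA libraries below all control libraries, and 4 of 10 had all C18:0 CoA libraries above them. These shares were 5.15% and 5.88% over all genes tested. Over the 864 genes whose C18:1 CoA libraries lay below their C18:0 CoA libraries, they were 28.6% and 25.5%. The 10 were again picked from these 864 by the smallest unadjusted edgeR p, so higher shares among them are no separate support. IPS1, a non-coding RNA that sequesters the phosphate-starvation microRNA, had 20.7, 31.5 and 47.3 CPM after C18:1 CoA, against 95.8, 78.9 and 59.4 CPM after C18:0 CoA and 66.6, 56.6 and 82.6 CPM in the control. The C18:1 CoA libraries lay below those of both other groups, and the log2 fold change was -1.10 ± 0.27 (SE). AT2G38240, a 2-oxoglutarate-dependent oxygenase, had 2.95, 8.64 and 2.11 CPM after C18:1 CoA, against 21.8, 14.0 and 17.0 CPM after C18:0 CoA, a log2 fold change of -1.87 ± 0.50 (SE). AT1G30720, a berberine-bridge-enzyme family protein, had 17.7, 8.64 and 13.6 CPM after C18:1 CoA, against 20.2, 29.8 and 95.3 CPM after C18:0 CoA, the last library standing far above the others. Its log2 fold change was -2.07 ± 0.55 (SE) with all libraries and -0.97 without C18:0 CoA replicate 3. VSR7 (a vacuolar sorting receptor), AT1G67750 (a pectate lyase) and AT2G16790 (a P-loop nucleoside triphosphate hydrolase) had log2 fold changes between -1.27 and -1.03.

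CRU3, the seed storage protein cruciferin 3, completes the 10 lower genes on very few reads. It had 1, 0 and 0 reads after C18:1 CoA, against 15, 6 and 55 reads after C18:0 CoA and 1, 6 and 6 reads in the control, so no fold is given. CRA1, another cruciferin gene, chosen after its values were seen, had 2, 0 and 0 reads after C18:1 CoA, against 5, 7 and 66 reads after C18:0 CoA. ICL, the isocitrate lyase of the glyoxylate cycle and likewise chosen after its values were seen, had 0, 11 and 11 reads after C18:1 CoA, against 17, 5 and 69 reads after C18:0 CoA. In these genes C18:0 CoA replicate 3 held most of the reads. AT4G12490, a lipid-transfer-type protein also chosen after its values were seen, had 3, 47 and 13 reads after C18:1 CoA, against 32, 3 and 1767 reads after C18:0 CoA and 30, 1889 and 15 reads in the control, so 1 library in each of those groups stood apart.

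The low-oxygen genes showed no shared direction between the acyl-CoAs. Of the 49 tested genes of the low-oxygen core, 29 had a log2 fold change above 0 and 20 below, with a median of 0.02 beside -0.0017 over all genes tested. At an unadjusted edgeR p under 0.05, 0 were higher and 1 was lower, PP2-A13, a phloem protein 2 family gene, at -0.67 ± 0.31 (SE). Over all genes these shares were 0.863% higher and 1.78% lower. The groups' libraries lay apart in 0 of the 49 genes, beside 4.82% of all genes higher and 5.07% lower. For 28 of the 49 the interval lay within a 2-fold difference, a share near the 53.9% of all genes. The median rested on single libraries, being -0.27 without C18:1 CoA replicate 2 and 0.22 without C18:1 CoA replicate 3. ADH1, the alcohol dehydrogenase of fermentation, had 576, 1051 and 401 CPM after C18:1 CoA, against 542, 505 and 824 CPM after C18:0 CoA and 381, 610 and 315 CPM in the control. These libraries overlapped widely, and ADH1's log2 fold change was 0.12, with an interval of -0.72 to 0.96. PDC1, the pyruvate decarboxylase before it, had 121, 290 and 75.0 CPM after C18:1 CoA, against 143, 156 and 185 CPM after C18:0 CoA. Its C18:1 CoA libraries spread more widely than those of C18:0 CoA, and the log2 fold change was 0.04 (-0.87 to 0.94). Without C18:1 CoA replicate 2 it was -0.81.

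LBD41, a LOB-domain repressor and marker of low oxygen, had 130, 160 and 125 CPM after C18:1 CoA, against 93.3, 130 and 169 CPM after C18:0 CoA and 72.6, 70.6 and 57.2 CPM in the control. Both acyl-CoA groups lay above all control libraries and overlapped each other, with a log2 fold change between them of 0.09 (-0.46 to 0.64). HRA1, which encodes a trihelix protein limiting the action of RAP2.12, had 44.3, 100.3 and 68.6 CPM after C18:1 CoA, against 40.4, 40.3 and 62.2 CPM after C18:0 CoA and 40.1, 30.0 and 33.2 CPM in the control. HRA1's log2 fold change was 0.64 (-0.01 to 1.30; edgeR unadjusted p = 0.0519, adjusted p = 1.00). HB1, a class 1 haemoglobin that scavenges nitric oxide, had 384, 410 and 180 CPM after C18:1 CoA, against 306, 479 and 681 CPM after C18:0 CoA. It stood at -0.60 (-1.23 to 0.02), the opposite side from HRA1. SUS4, a sucrose synthase, was at 0.31 (-0.79 to 1.41), and HRE1 and HRE2, the ERF-VII factors that low oxygen induces, at 0.01 (-0.68 to 0.69) and -0.56 (-1.62 to 0.50).

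The transcript level of RAP2.12 was bounded more tightly, while release and stability of the protein are not seen in RNA. RAP2.12 had 177, 208 and 229 CPM after C18:1 CoA, against 210, 256 and 231 CPM after C18:0 CoA and 212, 203 and 224 CPM in the control. Its log2 fold change was -0.16, and the interval of -0.54 to 0.22 lay well within a 2-fold difference. Of the 13 genes of the list of ERF-VII factors and their degradation, 7 were above 0 and 6 below, and 10 had an interval within a 2-fold difference. PRT6, the ubiquitin ligase that marks these factors for degradation, had 73.8, 67.3 and 67.0 CPM after C18:1 CoA, against 55.4, 36.8 and 47.2 CPM after C18:0 CoA, while the control libraries lay between 57.9 and 69.2 CPM. The acyl-CoA groups did not overlap, and PRT6's log2 fold change was 0.51 ± 0.22 (SE; edgeR unadjusted p = 0.031, adjusted p = 1.00). With the trend in exon length removed it was 0.28. ATE1, the arginyl transferase acting before PRT6, was at 0.45 ± 0.30 (SE), also without overlap. Of the 13 genes, the groups lay apart in 2 that were higher and 0 that were lower, beside 4.82% and 5.07% of all genes. PRT6 and ATE1 were named because their p was among the smallest of the list. The plant cysteine oxidases PCO1 and PCO2, which oxidize the factors in air, were at -0.29 (-0.90 to 0.32) and 0.16 (-0.56 to 0.88). RAP2.3, another ERF-VII factor, was at -0.61 ± 0.29 (SE).

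**Figure D3:**
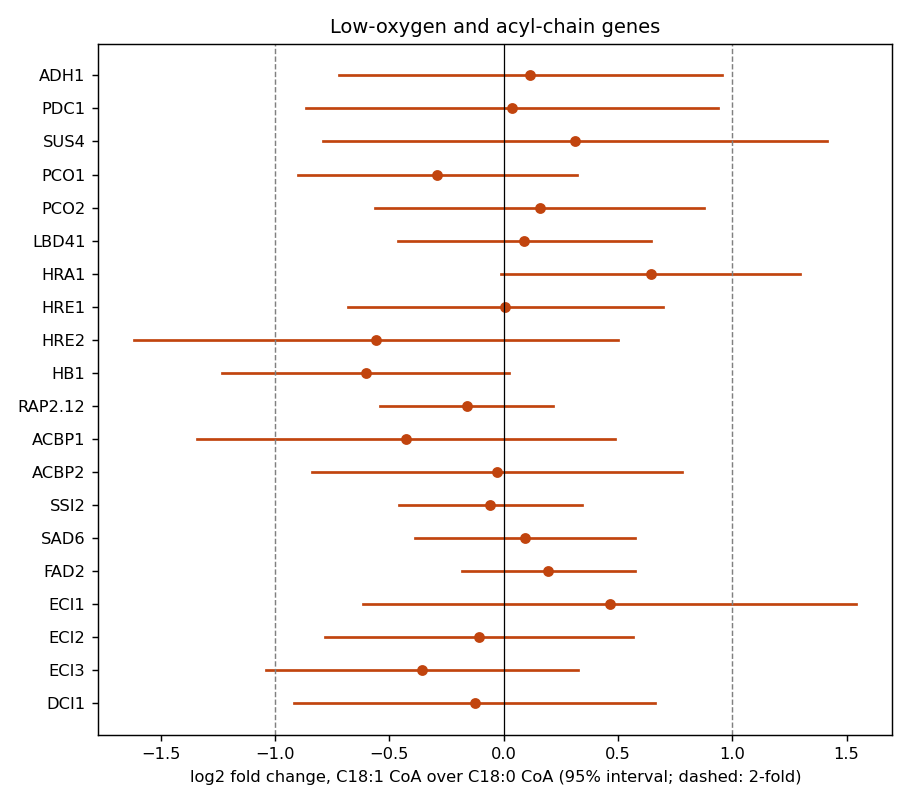
Log2 fold change of C18:1 CoA over C18:0 CoA (horizontal) with its 95% interval for the low-oxygen and acyl-chain genes always described, with dashed lines at a 2-fold difference. All intervals reach 0, and that of RAP2.12 (-0.54 to 0.22) is among the narrow ones while that of HRE2 (-1.62 to 0.50) is wide.

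Of 14 tested acyl-CoA-binding proteins and long-chain acyl-CoA synthetases, 6 were above 0 and 8 below, with a median of -0.06. At an unadjusted edgeR p under 0.05 there were 0 of the 14, beside 2.64% of all genes. A list this short would hold few or none at that share. ACBP2 had 23.6, 22.5 and 15.5 CPM after C18:1 CoA, against 21.8, 21.0 and 17.4 CPM after C18:0 CoA, a log2 fold change of -0.03 (-0.84 to 0.78). ACBP1 had 0, 13.9 and 15.2 CPM after C18:1 CoA, against 14.7, 28.1 and 14.1 CPM after C18:0 CoA. The C18:1 CoA library without an ACBP1 read is the one in which 3 reads stand for 8.85 CPM, and the log2 fold change was -0.43 (-1.34 to 0.49). LACS8 and LACS3, long-chain acyl-CoA synthetases, were at -0.58 ± 0.40 and -0.59 ± 0.43 (SE), and LACS2, which serves cutin synthesis, at 0.43 ± 0.40 (SE).

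Of 13 tested desaturases, 9 had an interval within a 2-fold difference. SSI2 had 201, 208 and 187 CPM after C18:1 CoA, against 220, 160 and 234 CPM after C18:0 CoA and 208, 192 and 179 CPM in the control. The groups overlapped, and SSI2's log2 fold change was -0.06 (-0.46 to 0.34). SAD6, a stearoyl-ACP desaturase gene that is also in the low-oxygen core, had 204, 284 and 178 CPM after C18:1 CoA, against 176, 196 and 254 CPM after C18:0 CoA and 175, 135 and 117 CPM in the control. Both acyl-CoA groups were above all control libraries, and between them the log2 fold change was 0.09 (-0.39 to 0.57). FAD2, which adds the second double bond to an 18:1 chain in the endoplasmic reticulum, had 537, 505 and 513 CPM after C18:1 CoA, against 452, 424 and 478 CPM after C18:0 CoA and 498, 429 and 566 CPM in the control. The acyl-CoA groups did not overlap each other but the control overlapped both, and FAD2's log2 fold change was 0.20 (-0.18 to 0.58). Of the 13 desaturases 8 were above 0 and 5 below, with a median of 0.09. The extremes were ADS1, a delta-9 desaturase, at -0.66 ± 0.38 (SE) and FAD8, a plastid desaturase, at 0.62 ± 0.40 (SE).

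Genes of chain breakdown did not separate the acyl-CoAs either. The 11 tested core beta-oxidation genes split 6 above 0 and 5 below, with a median of 0.00. ACX1, an acyl-CoA oxidase for long chains, had 153, 129 and 160 CPM after C18:1 CoA, against 165, 196 and 179 CPM after C18:0 CoA. These libraries did not overlap, and the log2 fold change was -0.28 ± 0.20 (SE). Of the 6 genes listed as auxiliary for unsaturated chains, 1 was above 0 and 5 below, with a median of -0.20. ECI2 among them is annotated as indole-3-butyric acid response 10, so the list is not particular to such chains. At an unadjusted edgeR p under 0.05 there were 0 of the 6, beside 2.64% of all genes. ECI1, an enoyl-CoA isomerase that moves the double bond into the place beta-oxidation requires, had 82.6, 19.4 and 15.7 CPM after C18:1 CoA, against 19.5, 21.0 and 21.0 CPM after C18:0 CoA. A single C18:1 CoA library, the shallowest, stood above all others, so ECI1's log2 fold change was 0.46 (-0.62 to 1.54) with all libraries and -0.21 without the shallow ones. The isomerases ECI2, ECI3 and DCI1 were at -0.11 (-0.78 to 0.57), -0.36 (-1.04 to 0.33) and -0.13 (-0.92 to 0.66). ECH2, an enoyl-CoA hydratase, was at -0.52 ± 0.38 (SE).

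Of 16 tested acyltransferase and chain elongation genes, 7 were above 0 and 9 below, and 14 had an interval within a 2-fold difference. GPAT9, which starts glycerolipid assembly in the endoplasmic reticulum, had 53.1, 59.6 and 43.3 CPM after C18:1 CoA, against 57.2, 107 and 73.9 CPM after C18:0 CoA. The libraries overlapped, and the log2 fold change was -0.56 ± 0.27 (SE). ATS1, its plastid counterpart, was at 0.44 ± 0.33 (SE). The endoplasmic reticulum stress list had 10 genes above 0 and 7 below of 17, with 14 within a 2-fold difference. CNX1, the chaperone calnexin, had 865, 862 and 793 CPM after C18:1 CoA, against 754, 640 and 873 CPM after C18:0 CoA, a log2 fold change of 0.15 (-0.21 to 0.51).

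Oleate is known in Arabidopsis as a brake on salicylic acid defence, since mutants of SSI2 with little of it have that defence switched on. Of 12 tested genes of the salicylic acid list, 4 were above 0 and 8 below, with a median of -0.26. At an unadjusted edgeR p under 0.05 there were 0 of the 12, beside 2.64% of all genes. PAD4, a lipase-like regulator of that defence, had 23.6, 6.48 and 6.56 CPM after C18:1 CoA, against 8.73, 28.1 and 22.2 CPM after C18:0 CoA. C18:1 CoA replicate 1 went against the other libraries of its group, and C18:0 CoA replicate 1 against those of its own. PAD4's log2 fold change was -1.08 ± 0.51 (SE; edgeR unadjusted p = 0.0587, adjusted p = 1.00). PR1, the classical salicylic acid marker, had 2, 4 and 4 reads after C18:1 CoA, against 2, 3 and 23 reads after C18:0 CoA, too few to bound it. Of 20 early immune genes 7 were above 0 and 13 below. At an unadjusted edgeR p under 0.05, 1 was lower and 0 higher, beside 1.78% of all genes lower. The 1 lower gene, CYP81F2, is a leading gene described above and is counted here again. FLS2, the flagellin receptor, was at 0.35 ± 0.20 (SE), without overlap.

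Jasmonate genes split 5 above 0 and 5 below of 10 tested. AOS, the allene oxide synthase of jasmonate synthesis, had 26.6, 17.6 and 26.5 CPM after C18:1 CoA, against 34.9, 35.1 and 43.6 CPM after C18:0 CoA and 45.0, 34.5 and 30.9 CPM in the control. C18:1 CoA lay below both other groups, and AOS was at -0.74 ± 0.33 (SE; edgeR unadjusted p = 0.0374, adjusted p = 1.00). LOX2, the lipoxygenase before it, was at -0.90 ± 0.49 (SE), with overlap.

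Heat shock genes leaned higher after C18:1 CoA on counts alone, 13 above 0 and 3 below of 16, with a median of 0.30. At an unadjusted edgeR p under 0.05, 3 of the 16 were higher and 0 lower, beside 0.863% of all genes higher. All lists here were chosen with earlier results of these data known, so a share above that of all genes is no separate support. HSFA2, the heat shock factor that sustains the response, had 76.7, 64.8 and 69.8 CPM after C18:1 CoA, against 43.9, 35.1 and 32.3 CPM after C18:0 CoA and 31.2, 39.1 and 51.8 CPM in the control. The C18:1 CoA libraries stood above those of both other groups. HSFA2's log2 fold change was 0.88 ± 0.33 (SE; 0.19 to 1.57; edgeR unadjusted p = 0.0155, adjusted p = 1.00). HSP23.6-MITO, a small mitochondrial chaperone, had 8.85, 6.79 and 8.43 CPM after C18:1 CoA, against 2.76, 3.51 and 4.04 CPM after C18:0 CoA and 3.65, 6.08 and 7.72 CPM in the control. Its log2 fold change of 1.21 ± 0.53 (SE) rests in part on 3 reads and 2 reads in the shallow libraries. HSP17.6II had 0, 59 and 10 reads after C18:1 CoA, against 9, 0 and 9 reads after C18:0 CoA, and so overlapped. The list median was 0.04 without C18:1 CoA replicate 3, the 1 library of these 6 with another sequencing index. With that index as a covariate it was 0.04. No other library of the pair or the control carries that index, so the covariate in effect leaves this library out and is no second check. Index and library cannot be told apart.

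Carbon starvation genes leaned the other way, 2 above 0 and 18 below of 20, with a median of -0.30. At an unadjusted p under 0.05, 4 of the 20 were lower and 0 higher, beside 1.78% of all genes lower. Scored per library as the median centred log2 CPM of its members, the list stood at -0.13, -0.51 and -0.02 after C18:1 CoA, against -0.14, 0.45 and -0.02 after C18:0 CoA, so 1 library of each group stood apart and the others overlapped. The median was -0.15 without C18:1 CoA replicate 2 and -0.15 without C18:0 CoA replicate 2. ASN1, the asparagine synthetase induced by darkness, had 47.2, 20.4 and 24.1 CPM after C18:1 CoA, against 26.0, 98.2 and 78.7 CPM after C18:0 CoA and 33.5, 95.1 and 61.8 CPM in the control. The C18:0 CoA and control libraries each had 1 low value beside 2 high ones, so the groups overlapped. ASN1's log2 fold change was -1.29 ± 0.47 (SE; edgeR unadjusted p = 0.016, adjusted p = 1.00). GDH2, a glutamate dehydrogenase, had 511, 350 and 494 CPM after C18:1 CoA, against 498, 814 and 820 CPM after C18:0 CoA and 537, 720 and 758 CPM in the control, at -0.66 ± 0.25 (SE). DRM2, a dormancy-associated gene, was at -0.89 ± 0.35 (SE), and ERD5, a proline dehydrogenase, at -0.66 ± 0.30 (SE).

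Of 20 detoxification and mitochondrial dysfunction genes, 8 were above 0 and 12 below. At an unadjusted p under 0.05, 1 of the 20 was higher and 3 were lower, beside 0.863% and 1.78% of all genes. NAC13, a regulator of mitochondrial retrograde signalling, had 38.4, 42.3 and 30.0 CPM after C18:1 CoA, against 25.5, 14.0 and 21.0 CPM after C18:0 CoA and 30.1, 29.6 and 25.5 CPM in the control. Its acyl-CoA groups did not overlap, and the log2 fold change was 0.75 ± 0.28 (SE). The lower genes were UGT74E2, a glucosyltransferase of the auxin indole-3-butyric acid, and the glutathione transferases GSTF2, at -0.65 ± 0.24 (SE), and GSTU25. UGT74E2 had 0, 34 and 20 reads after C18:1 CoA, against 21, 11 and 130 reads after C18:0 CoA. Its CPM values overlapped, and its log2 fold change was -1.94 ± 0.69 (SE) with all libraries and -0.51 without C18:0 CoA replicate 3. GSTU25 had 0, 0 and 9 reads after C18:1 CoA, against 21, 3 and 29 reads after C18:0 CoA.

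Of 5 tested touch genes 1 was above 0 and 4 below, with a median of -0.61 that ranged between -0.84 and -0.38 when 1 library was left out. XTH18 and TCH4 were lower and 0 genes higher at an unadjusted edgeR p under 0.05, beside 1.78% of all genes lower. XTH18 is a leading gene described above and is counted here again, so this share is no separate support. TCH4, another xyloglucan enzyme, had 204, 88.9 and 148 CPM after C18:1 CoA, against 184, 279 and 242 CPM after C18:0 CoA, with overlap and a log2 fold change of -0.73 ± 0.33 (SE). Of 8 type-A response regulators, which cytokinin induces, 6 were above 0 and 2 below. ARR16 had 17.7, 17.6 and 5.62 CPM after C18:1 CoA, against 4.37, 5.26 and 4.44 CPM after C18:0 CoA, without overlap. Its 17.7 and 5.26 CPM rest on 6 reads and 3 reads. The control, at 6.03, 10.5 and 0.772 CPM, overlapped both groups. The median of the regulators was 0.23 with all libraries and -0.14 without C18:1 CoA replicate 2. Of 14 clock genes 10 were above 0 and 4 below, and ELF3, of the evening complex, had 109, 79.9 and 80.8 CPM after C18:1 CoA, against 67.8, 33.3 and 50.5 CPM after C18:0 CoA. ELF3's log2 fold change was 0.71 ± 0.26 (SE) and its groups did not overlap.

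**Figure D4:**
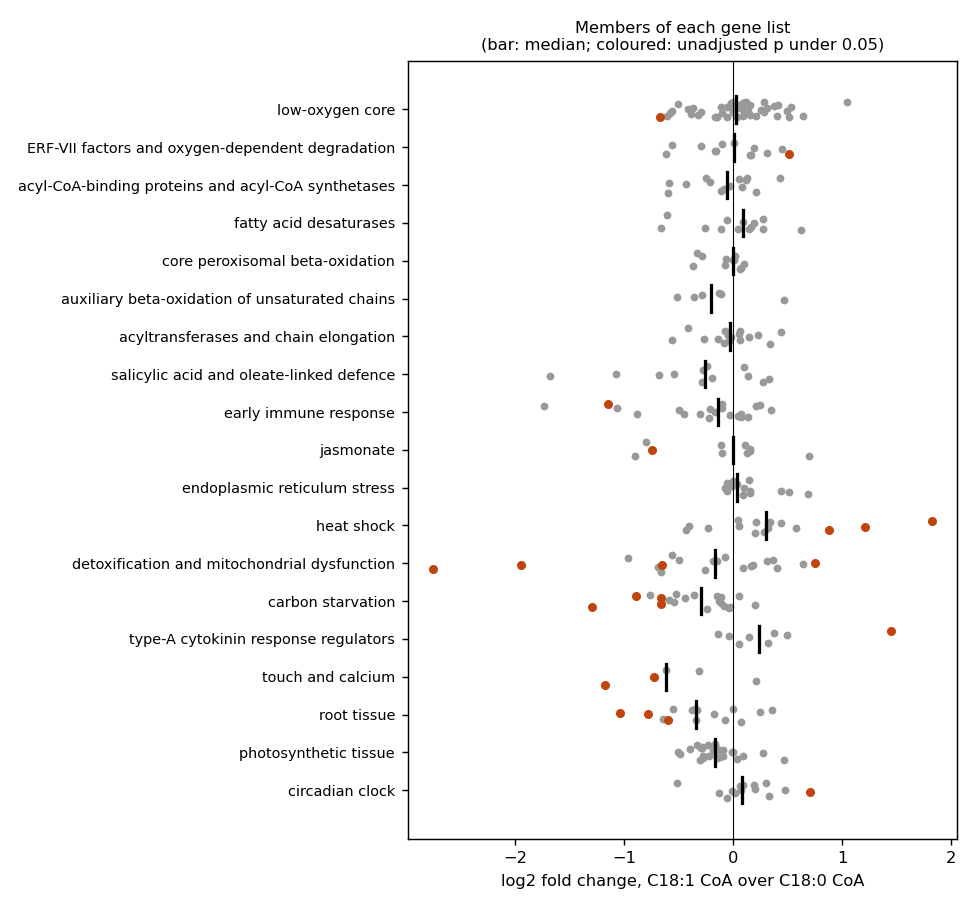
Log2 fold change of C18:1 CoA over C18:0 CoA (horizontal) for each tested member of each gene list, with a bar at the list's median and members at an unadjusted edgeR p under 0.05 coloured. The heat shock median was 0.30, those of carbon starvation and touch were -0.30 and -0.61, and that of the low-oxygen core was 0.02.

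Markers of the organs were measured beside these genes. Of 15 tested root markers 3 were above 0 and 12 below, with a median of -0.34. At an unadjusted p under 0.05, 3 of the 15 were lower and 0 higher, again beside 1.78% of all genes. PRP1, a proline-rich wall protein of root hairs, had 32.5, 22.5 and 25.8 CPM after C18:1 CoA, against 48.0, 38.6 and 42.0 CPM after C18:0 CoA and 40.1, 44.6 and 43.3 CPM in the control. C18:1 CoA lay below both other groups, at -0.78 ± 0.24 (SE; edgeR unadjusted p = 0.00391, adjusted p = 1.00). EXPA7, a root hair expansin, was at -1.03 ± 0.36 (SE), and RCI3, a root peroxidase, at -0.59 ± 0.22 (SE), both without overlap. Leaving out 1 library took the root median to between -0.58 (without C18:1 CoA replicate 2) and -0.18 (without C18:0 CoA replicate 1). The root list scored -0.04, 0.13 and -0.07 after C18:1 CoA, against 0.28, -0.06 and 0.28 after C18:0 CoA, which overlapped. Of 28 photosynthetic markers 5 were above 0 and 23 below, with a median of -0.16. That median was 0.066 without C18:1 CoA replicate 2 and 0.072 without C18:0 CoA replicate 2, so its sign rested on single libraries. Of the 28, 22 had an interval within a 2-fold difference and 0 an unadjusted edgeR p under 0.05, beside 53.9% and 2.64% of all genes. Their scores were 0.13, -0.72 and 0.11 after C18:1 CoA, against -0.25, 0.41 and -0.14 after C18:0 CoA. The part of organ makeup in the values of XTH18, TCH4 and IPS1 was not tested.

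Fold changes also moved with exon length. The shortest sixth of genes, up to 935 exon bases, had a median log2 fold change of -0.16, and the longest sixth, from 2483 bases, one of 0.16, with 2840 genes in each. Genes higher after C18:1 CoA at an unadjusted p under 0.05 had a median exon length of 1847 bases and those lower one of 1160, beside 1591 over all genes tested. Short genes stood against long genes by 0.45, -0.37 and -0.36 (log2) in the C18:1 CoA libraries and by -0.11, 0.39 and 0.08 in the C18:0 CoA libraries, so that the shallowest library of each group was the highest of its group. With the trend removed, the medians of the shortest and longest sixths were -0.01 and 0.00. PRN, XTH18, CYP81F2 and HSFA2 were then at 1.45, -1.07, -1.16 and 0.91. AT2G03140, of 6206 exon bases, and IPS1, of 542, moved more, from 1.00 to 0.76 and from -1.10 to -0.88. The 10 leading higher genes had a median exon length of 2283 bases and the 10 lower ones 1545. PRN and XTH18, on opposite sides, have 1057 and 1048 exon bases. The part of exon length in the values of the leading genes was not tested.

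**Figure D5:**
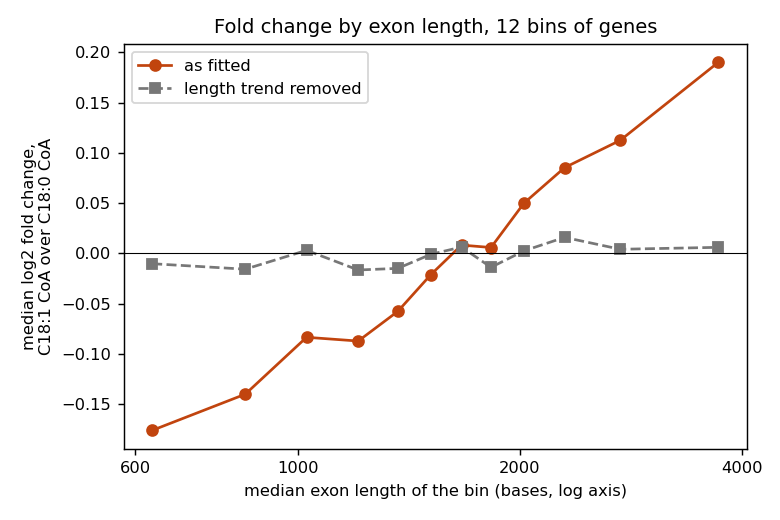
Median log2 fold change of C18:1 CoA over C18:0 CoA (vertical) against the median exon length in bases (horizontal, log axis) of 12 bins of genes, as fitted and with the length trend removed. As fitted the medians run between -0.18 in the shortest bin and 0.19 in the longest, and with the trend removed they stay near 0.

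The authors' deposited table holds their own comparison of this pair by Baggerley's test, which compares each gene's share of the reads. According to the authors' deposited table, 936 of 28642 genes had an FDR-corrected p under 0.05 (3.27%), 272 higher (0.95%) and 664 lower (2.32%) after C18:1 CoA. Of those 936 genes in the authors' deposited table, 827 entered the edgeR test here. Among these, 815 had the same direction in edgeR, which is close to given, since both tests use the same reads. In 171 the unadjusted edgeR p was under 0.05, beside 2.64% of all genes tested. In 227 the libraries did not overlap, beside 4.82% higher and 5.07% lower over all genes tested. These genes were chosen on the same reads, so higher shares among them are no separate support. The adjusted test was passed by 0. Of the 20 leading genes above, also chosen on these reads, 14 had an FDR p under 0.05 in the authors' deposited table, beside 3.27% of all genes.

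The smallest p-values of the authors' deposited table belonged to genes of different kinds on either side. The authors' deposited table gives an FDR p of 0 to 10 genes, of which only PRN passed the filter on low counts and 5 had no read in any C18:0 CoA library. PORA, a light-dependent protochlorophyllide reductase and 1 of those 5, had 5, 1 and 2 reads after C18:1 CoA, against 0, 0 and 0 reads after C18:0 CoA. HMT3, a homocysteine methyltransferase, had 5, 0 and 6 reads after C18:1 CoA, against 3, 0 and 0 reads after C18:0 CoA. The first library, where these 5 reads lie, is the shallowest. AT3G27860, a PWWP-domain family protein, had 5, 9 and 1 reads after C18:1 CoA, against 3, 0 and 2 reads after C18:0 CoA, and AT1G76190, a SAUR-like protein, had 4, 0 and 2 reads after C18:1 CoA, against 0, 0 and 1 reads after C18:0 CoA.

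On the lower side the genes with the smallest p in the authors' deposited table were abundant. ERD14, a dehydrin, had 1665, 749 and 904 CPM after C18:1 CoA, against 1097, 2183 and 1523 CPM after C18:0 CoA and 787, 957 and 1140.1 CPM in the control. C18:1 CoA replicate 1 was above 2 of the 3 C18:0 CoA libraries, and ERD14's log2 fold change here was -0.54 ± 0.37 (SE; edgeR unadjusted p = 0.164, adjusted p = 1.00). AT1G07590, a tetratricopeptide repeat protein, and GSTF10, a glutathione transferase, were at -0.38 ± 0.41 and -0.41 ± 0.27 (SE) in edgeR, both with overlap. AT4G22212, a defensin-like protein, was at -0.81 ± 0.41 (SE), with overlap. AT5G64100, a peroxidase, had 449, 364 and 355 CPM after C18:1 CoA, against 530, 666 and 690 CPM after C18:0 CoA. Its groups did not overlap, and in edgeR it was at -0.70 ± 0.24 (SE; unadjusted p = 0.0105, adjusted p = 1.00).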

How the data were processed

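RNA-seq libraries of whole seedlings were made with a stranded mRNA kit, per the labels' protocols. Raw counts of exon reads for each gene and library were deposited, per the file headers, and the submitters' processing notes name the TAIR10 build. Whether counting used strand, and with which aligner, is not given in the sources used here, so overlapping and antisense genes are less certain. Unique and total exon counts in the deposited table differed in 0 cells, so reads shared between gene copies are absent. The authors also deposited the p-values and 2 scores of Baggerley's test, a difference and a signed fold of weighted proportions, per the file headers. Of 28642 genes, 6448 held 0 exon reads over all libraries. The 1 line that named no gene held 0 reads and was left out. Columns of no sample of the series numbered 0.

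The test was the quasi-likelihood test of edgeR 4.0.16 (R 4.3.3) on exon counts of 12 libraries, with TMM scaling, 1 mean for each group and the filterByExpr filter (17036 genes kept). It was two-sided, Benjamini-Hochberg adjusted over those genes, threshold 0.05. All 12 libraries share 1 estimate of the spread (biological coefficient of variation 0.229). Only 1 pair of acyl-CoAs was compared. Intervals are approximate 95% intervals from the fitted standard error. On data simulated without trends shared between genes, they covered 95.3% of true values, with 13 false calls. Their coverage in the real libraries was not tested. CPM values use TMM-scaled library sizes. DESeq2 1.42.0 and limma voom 3.58.1 were alternatives. Further alternatives changed the scaling, the filter, the libraries, the covariates, the counted reads and the length trend. Replicates differed by 3.86 to 7.65 times the chi-square of sampling noise, so each library counts as 1. Gene names came from RefSeq (28009 identifiers matched) and sequences from its TAIR10.1 genome; coordinates of genes are those of the deposited table. Tables and figures used Python 3.11.15, pandas 2.3.3 and matplotlib 3.10.9.

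Genes were named by a rule: the 10 higher and 10 lower genes with the smallest unadjusted p among those whose libraries did not overlap, a set of low-oxygen and acyl-chain genes, the 3 members of each list with the smallest p, and the 5 higher and 5 lower genes with the smallest FDR p in the authors' deposited table, with ties at 0 broken by the size of the difference. The 19 gene lists and these genes were chosen with earlier results of these data known. Lists are described by counts and medians, with no test of its own.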

Additional observations from a re-analysis of the deposited data

How the results depend on the processing

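The count of genes at an adjusted p under 0.05 was 0 under every alternative run, with the smallest adjusted p at 0.0679, for PRN, without the 3 shallow libraries and with the length trend removed, a setting chosen after seeing the data. At an unadjusted p under 0.05, 147 genes were higher and 303 lower after C18:1 CoA as reported. Without a filter on low counts 226 were higher. Without the 3 shallow libraries 465 were higher and 695 lower, and with the length trend also removed 322 and 506. Leaving out 1 library at a time gave 87 (without C18:0 CoA replicate 2) to 350 (without C18:0 CoA replicate 1) higher and 186 (without C18:0 CoA replicate 3) to 476 (without C18:0 CoA replicate 1) lower. The 9183 genes bounded within a 2-fold difference ranged between 6004, without C18:0 CoA replicate 1, and 9205 when 1 library was left out, and between 6312, with the index as a covariate, and 11749, without the shallow libraries and with the length trend removed, under the other alternatives. The cause was not tested. The deviations of same-numbered libraries correlated at -0.16, -0.15 and -0.0073, so no pairing by replicate number was seen. The highest correlations, 0.17 and 0.12, joined deep with deep and shallow with shallow libraries. They therefore do not decide whether same-numbered pools were handled together. With the replicate block 0 genes passed, 195 were higher and 333 lower at an unadjusted edgeR p under 0.05, and 7994 were bounded. Of 323 values of list medians under alternatives 11 moved by more than the spread between replicates, and of 1642 values of named genes 14 did; 0 reversed a call. The medians of 12 of the 19 lists changed sign when 1 library was left out. Depth limits low genes most, since 3 reads stand for 8.85 CPM in C18:1 CoA replicate 1.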
